A study of Mus musculus with 10 samples.

Results

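The 4 libraries described here hold RNA of 2/20 CTLs, a mouse cytotoxic T lymphocyte line, taken either 4 h into co-culture with 4T1 cells (2 libraries) or at rest (2 libraries), out of 10 libraries in the series. 4T1 cells are BALB/c mammary carcinoma cells. The members were chosen by their labels, and every gene with enough counts entered the comparison, 14729 of 35275. Co-culture libraries are compared with resting libraries, and 2 libraries of 2/20 CTLs taken 4 h after AH1 peptide and 2 taken at 24 h of co-culture serve only to show where the 4 h co-culture differs. All groups are labelled wild type. The line itself was kept going by weekly culture with AH1 peptide, IL-2 and irradiated BALB/c spleen cells, so resting cells had met the antigen before. CTLs were pulled out with magnetic beads that bind CD45, a surface protein of leukocytes, before poly(A) RNA was extracted. The sources used here give neither the number of 4T1 cells nor the purity after the beads. It is also not stated whether the libraries of a group came from separate cultures. P-values rest on the spread between libraries of a group, pooled over all 10 libraries, and that spread may be technical.

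A CTL kills when its T cell receptor, signalling through CD3 chains and the kinase Lck, meets a peptide on an MHC class I molecule of the target. Engagement switches on early transcription factors such as the NR4A and EGR families, then cytokines and chemokines, among them interferon-gamma, and receptors such as the IL-2 receptor alpha chain and 4-1BB. Interferon-gamma acts on many cell types, tumor cells included, where it raises chemokines that attract T cells, guanylate-binding proteins and MHC genes.

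Levels are CPM, counts scaled to a common library size with TMM factors, and fold changes are log2 of co-culture over rest with their SE. Totals ran from 14104658 to 22910633 counts per library over the series, with 14823222 and 22910633 in co-culture and 17125862 and 14104658 at rest. A gene rose or fell where its adjusted p was under 0.05 (edgeR's quasi-likelihood test, Benjamini-Hochberg over all genes tested). At this threshold 60.9% of genes were called, 34.2% higher and 26.7% lower. Counts of calls in any list have to be read against those shares. Both libraries of a group lay beyond both of the other in 84.3% of genes, with co-culture higher in 44.6% and lower in 39.7%.

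The co-culture libraries held less RNA of T cell genes and much RNA of epithelial genes. Cd3e (ENSMUSG00000032093, chr9:44998743-45009590 of mm10, minus strand), a signalling chain of the T cell receptor complex, had 161 and 207 CPM in co-culture and 465 and 415 CPM at rest. Its log2 fold change was -1.26 ± 0.22 (adjusted p = 0.00027). Lck, the kinase that starts receptor signalling, had 318 and 337 CPM in co-culture and 810 and 814 CPM at rest (-1.31 ± 0.12, adjusted p = 1.1e-06). Ptprc, which encodes the CD45 used for the beads, had 685 and 687 CPM in co-culture and 2868 and 3096 CPM at rest (-2.12 ± 0.14, adjusted p = 4.4e-08). In all 3 genes both co-culture libraries lay below both resting libraries, as in 39.7% of all genes. Over 22 T cell identity genes tested, 17 fell, 1 rose and the median log2 fold change was -1.40, where the median of all genes was 0.05. The range ran from -3.56 for Skap1, an adaptor of T cell adhesion, to 0.88 for Cd8a. Their summed level was 3249 and 3409 CPM in co-culture and 9239 and 9617 CPM at rest. In bulk RNA, fewer T cells and less of these transcripts per T cell cannot be told apart.

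The T cell genes did not move by 1 common factor. Cd8a, the CD8 alpha chain, rose to 254 and 284 CPM in co-culture, against 148 and 143 CPM at rest (0.88 ± 0.18, adjusted p = 0.00081), while Cd8b1, its beta chain partner, fell (-0.99 ± 0.13, adjusted p = 2.5e-05). Zap70, the kinase that Lck activates, had 186 and 195 CPM in co-culture and 238 and 209 CPM at rest and was not called (adjusted p = 0.23). Cd3d, another CD3 chain, was at 106 and 97.9 CPM in co-culture and at 510 and 561 CPM at rest, a steeper fall (-2.39 ± 0.15, adjusted p = 3.5e-08). Markers that all leukocytes share, such as the GTPase Rac2 and the actin regulator Coro1a, fell in 22 of 24 cases and rose in 1, with a median of -2.09. Setting all libraries equal on the median level of the T cell identity genes raised the median of all genes by 0.98 on the log2 scale and left the median of these genes at -0.43. Under that scaling 65.2% of genes were called, 56.7% higher and 8.51% lower, and any gene that fell by less than about 0.98 changed its sign. List counts given with this scaling have to be read against those shares. The 22 T cell identity genes also moved without 4T1 cells present. With peptide at 4 h, 14 were higher than at rest and 6 lower, with a median of 0.82. Over all genes 28.8% were higher and 30.7% lower with peptide. Values under this scaling are thus not corrected for the number of T cells alone.

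Krt8 (ENSMUSG00000049382, chr15:101996711-102004342, minus strand), a keratin of simple epithelia, had 1356 and 1256 CPM in co-culture and 1.01 and 1.85 CPM at rest (9.86 ± 0.59, adjusted p = 1.2e-08). Epcam, an epithelial adhesion protein, had 313 and 306 CPM in co-culture and 0.280 and 0.618 CPM at rest (9.46 ± 0.47, adjusted p = 3.2e-10). Of 24 epithelial genes tested 23 rose, none fell, and the median was 9.66. Their summed level was 4930 and 5076 CPM in co-culture, against 10.9 and 12.8 CPM at rest. Matrix and mesenchymal genes rose in 15 of 20 cases and fell in 2, led by Fn1 (fibronectin) at 1316 and 1684 CPM in co-culture and 2.69 and 3.30 CPM at rest. The co-culture libraries carried this RNA although CD45 beads had been used, and how much of each change below comes from 4T1 cells was not tested, since no library of 4T1 cells alone was used here. B cell genes were nearly absent from both groups: Cd22, Ms4a1 and Fcrla had no counts in either. Among 16 myeloid genes 6 fell and 1 rose, and their summed level was 23.7 and 22.9 CPM in co-culture and 57.2 and 51.0 CPM at rest.

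**Figure D1:**
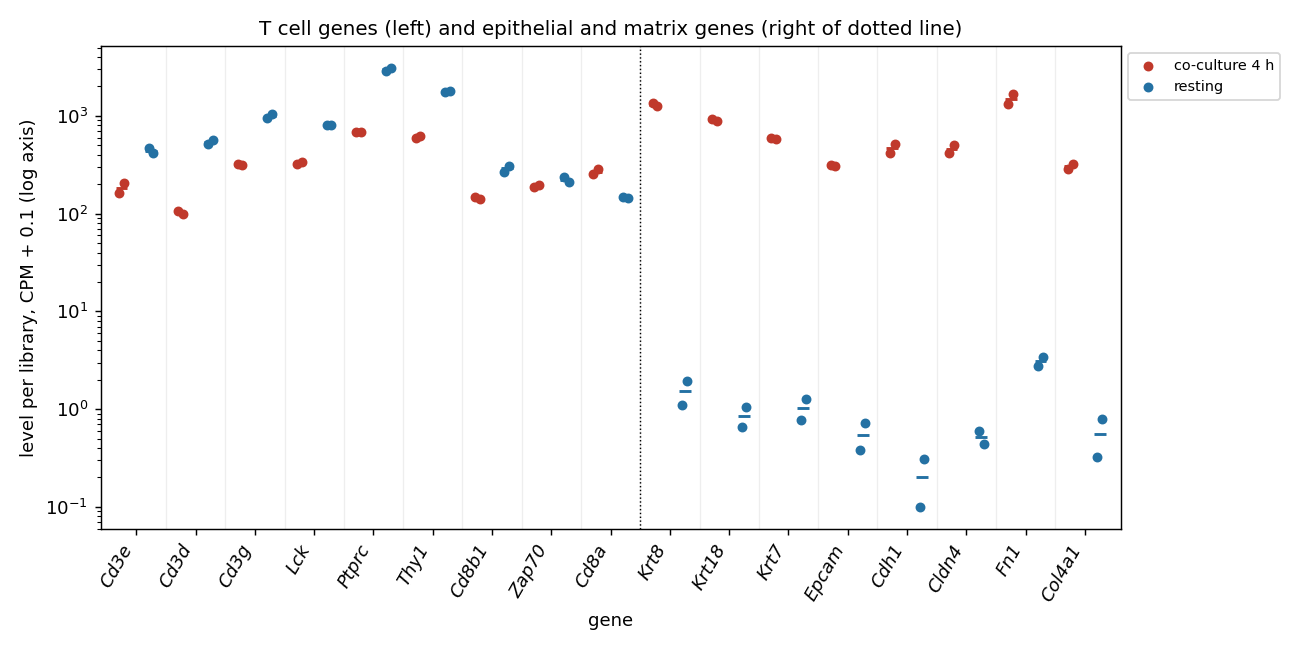
Levels in each library (points, CPM + 0.1 on a log axis) and their mean (bars) for 9 T cell genes and 8 epithelial or matrix genes, with co-culture 4 h left of resting. Most T cell genes were lower in co-culture, Cd8a was higher, and Krt8 was at 1356 and 1256 CPM in co-culture against 1.01 and 1.85 CPM at rest.

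Over all genes 5033 rose and 3932 fell, 3715 and 2591 of them past 2-fold. Among those that rose, 1010 (20.1%) stayed under 1 CPM in all 6 libraries of the series without 4T1 cells. Those 1010 genes took 2.04% and 2.16% of all counts in co-culture and 0.00985% and 0.0111% at rest. This contrast follows from how the genes were picked, and it does not measure the share of 4T1 RNA. Of the genes that fell, 1908 fell further than the T cell identity median, 13.0% of all genes tested.

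The 10 genes with the highest fold changes had no or almost no counts at rest. Epha2 (chr4:141301240-141329384, plus strand), an ephrin receptor of epithelial cells, had 220 and 238 CPM in co-culture and no counts at rest, at least 2495-fold higher against a floor of 3 counts over the resting group. Sgms2, a sphingomyelin synthase, was at least 1318-fold higher, and Ptk2, focal adhesion kinase, at least 1010-fold higher. The others were D8Ertd82e, Fam167a, Kirrel, Cdc42ep1, Tns4, Als2cl and Ccbe1. Tns4, a tensin at focal adhesions, had 445 and 494 CPM in co-culture and 0.0560 and 0 CPM at rest. The other 9 had no counts at rest and lay at or above 77.6 CPM in both co-culture libraries. In the libraries taken 4 h after peptide, which hold no 4T1 cells, the 10 genes were at 2.58 CPM or lower. Sgms2, D8Ertd82e, Fam167a, Ptk2 and Als2cl were still called higher there than at rest, and the others were not called.

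The 10 lowest fold changes belonged to Pkib, Elovl4, Mcoln2, Fam65b, Fosb, Ctla4, Chga, Tspan32, B3galt2 and Ccl22. Ctla4 (ENSMUSG00000026011, chr1:60887000-60915832, plus strand), an inhibitory receptor that competes with CD28, had 20.1 and 22.3 CPM in co-culture and 894 and 919 CPM at rest (-5.41 ± 0.17, adjusted p = 4.4e-10). Fosb, an AP-1 subunit, had 8.67 and 11.9 CPM in co-culture and 476 and 418 CPM at rest (-5.43 ± 0.27, adjusted p = 1.1e-08). Fam65b, an inhibitor of the GTPase RhoA in T cells, had 3.09 and 5.73 CPM in co-culture and 222 and 204 CPM at rest. The log2 fold changes of the 10 genes ran from -6.62 to -5.00, beyond every T cell identity gene. Most of them were also lower with peptide at 4 h than at rest, with Fosb at -5.64 and Ctla4 at -4.91. Pkib (2.64) and Ccl22 (2.82) were higher with peptide, and Tspan32 was not called.

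**Figure D2:**
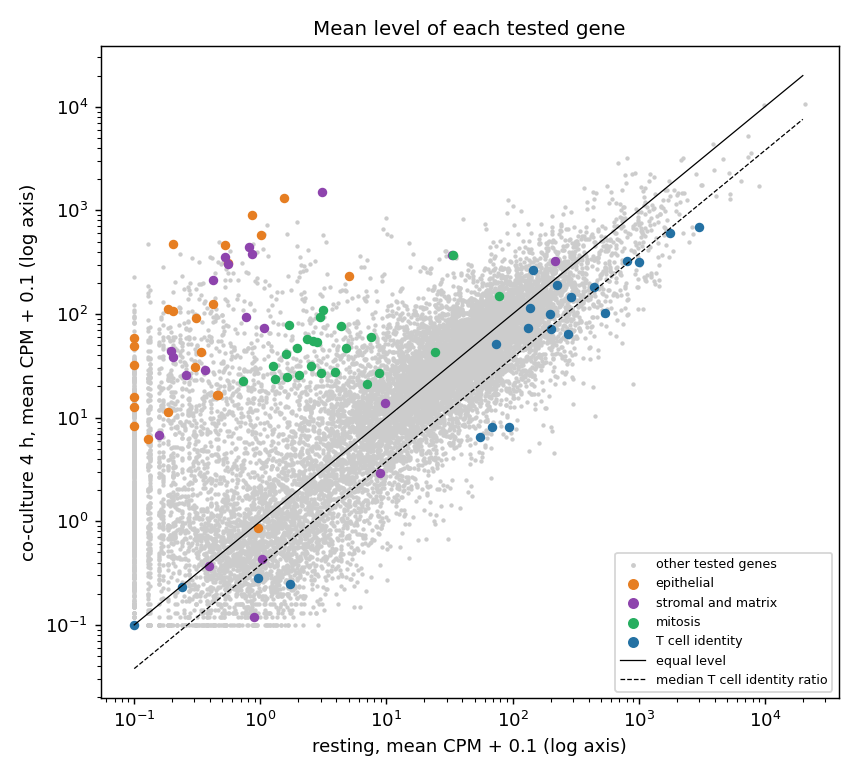
Mean level of each of 14729 genes in co-culture 4 h (vertical) and at rest (horizontal), CPM + 0.1 on log axes, with 4 gene lists coloured. T cell identity genes lie around the dashed line at their median log2 ratio of -1.40, and 23 of 24 epithelial genes lie far above the line of equal level.

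The cytokines of the CTL split. Ifng (ENSMUSG00000055170, chr10:118441047-118445892, plus strand), interferon-gamma itself, had 198 and 211 CPM in co-culture and 189 and 209 CPM at rest, overlapping levels with a log2 fold change of 0.04 ± 0.18 (adjusted p = 0.86). With T cell identity scaling its value was 1.02 (adjusted p = 0.0048). Tnf, tumor necrosis factor, had 109 and 126 CPM in co-culture and 203 and 205 CPM at rest (-0.80 ± 0.17, adjusted p = 0.0013), and under T cell identity scaling its sign turned to 0.18. Of 22 CTL cytokine and chemokine genes tested 9 rose and 8 fell, with a median of 0.02. Among all genes 34.2% rose and 26.7% fell.

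The chemokines that rose are known as products of engaged CTLs. Xcl1 (ENSMUSG00000026573, chr1:164931644-164935527, minus strand), which attracts cross-presenting dendritic cells, had 54.0 and 58.4 CPM in co-culture and 2.35 and 0.961 CPM at rest (5.04 ± 0.32, adjusted p = 1.2e-08). Ccl3, an inflammatory chemokine of T cells, had 97.5 and 108 CPM in co-culture and 10.6 and 13.0 CPM at rest (3.12 ± 0.16, adjusted p = 6.9e-09). Ccl1, a ligand of Ccr8, had 21.3 and 26.3 CPM in co-culture and no counts at rest, at least 263-fold higher. Ccl4 rose less (0.92 ± 0.14, adjusted p = 9.5e-05), as did the TNF family ligands Tnfsf14 (1.48 ± 0.14) and Tnfsf9 (1.08 ± 0.19). Spp1, osteopontin, rose to 901 and 747 CPM in co-culture, against 38.3 and 42.1 CPM at rest, and is also a product of many carcinomas. Ccl5, a chemokine stored by memory CTLs, fell to 229 and 263 CPM in co-culture, against 1368 and 1365 CPM at rest (-2.47 ± 0.13, adjusted p = 6.9e-09). Ltb, lymphotoxin beta, fell as well (-1.92 ± 0.13, adjusted p = 5.8e-08). Fasl, the ligand of the death receptor Fas, fell by 1.14 ± 0.13 (adjusted p = 7.5e-06), and with T cell identity scaling it was not called, at -0.17 (adjusted p = 0.53).

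Genes of the lytic granule moved unevenly. Gzmb, granzyme B, had 222 and 222 CPM in co-culture and 275 and 299 CPM at rest (-0.37 ± 0.12, adjusted p = 0.018), and with T cell identity scaling its value was 0.60 (adjusted p = 0.024). Without either co-culture library, or without resting replicate 2, Gzmb was not called, at -0.35, -0.35 and -0.30. Prf1, perforin, had 192 and 217 CPM in co-culture and 235 and 237 CPM at rest and was not called (adjusted p = 0.24). Nkg7, a granule membrane protein, was not called either (-0.17 ± 0.12, adjusted p = 0.23). Gzmk, granzyme K, fell to 213 and 208 CPM in co-culture, against 1274 and 1349 CPM at rest (-2.64 ± 0.16, adjusted p = 3.4e-08), and Cst7, cystatin F, fell alike (-2.66 ± 0.16). Of 22 granule genes 10 fell and 2 rose with a median of -0.40. With T cell identity scaling 12 rose and 5 fell, with a median of 0.59, against 1.03 for all genes, of which 56.7% rose. The pair that rose, Lamp1 (0.99 ± 0.13) and Stx7 (2.09 ± 0.20), encode lysosome and endosome proteins found in most cells.

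Activation receptors moved both ways. Il2ra (ENSMUSG00000026770, chr2:11642792-11693191, plus strand), the IL-2 receptor alpha chain, had 616 and 754 CPM in co-culture and 203 and 207 CPM at rest (1.74 ± 0.15, adjusted p = 5.8e-07). Tnfrsf9 (ENSMUSG00000028965, chr4:150914562-150946102, plus strand), the costimulatory receptor 4-1BB, had 357 and 364 CPM in co-culture and 65.0 and 79.2 CPM at rest (2.32 ± 0.16, adjusted p = 5.9e-08). Cd28, the receptor that Ctla4 opposes, had 19.9 and 23.3 CPM in co-culture and 361 and 358 CPM at rest (-4.05 ± 0.15, adjusted p = 1.0e-09). Icos, a relative of Cd28, fell by 2.71 ± 0.14, Tnfrsf18 (GITR) by 3.18 ± 0.22 and Cd226, an activating adhesion receptor, by 2.46 ± 0.16. Of 23 receptors 7 rose and 14 fell, with a median of -1.11, and with T cell identity scaling 10 rose and 9 fell, with a median of -0.14. Under that scaling 56.7% of all genes rose and 8.51% fell, with a median of 1.03. Cd44 and Cd81, which rose by 3.61 ± 0.15 and 5.69 ± 0.35, are also made by epithelial tumor cells.

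Inhibitory receptors held a similar contrast. Pdcd1 (PD-1) had 53.7 and 54.8 CPM in co-culture and 12.2 and 13.3 CPM at rest (2.09 ± 0.14, adjusted p = 3.8e-08). Havcr2 (TIM-3) had 206 and 228 CPM in co-culture and 45.7 and 51.3 CPM at rest (2.16 ± 0.16, adjusted p = 1.2e-07). Cd274, which encodes the PD-1 ligand, rose by 0.56 ± 0.13 (adjusted p = 0.0022). Tigit fell by 2.00 ± 0.15, and Ctla4 fell as given above. Nt5e, the CD73 ecto-enzyme, rose to 379 and 374 CPM in co-culture, against 0.0560 and 0.206 CPM at rest. In all 4 of 19 inhibitory genes rose and 7 fell, with a median of -0.49. With T cell identity scaling 7 rose and 3 fell, with a median of 0.49, against 1.03 for all genes, of which 56.7% rose.

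Of 38 early response genes of T cell receptor signalling 12 rose and 18 fell, with a median of -0.37. With T cell identity scaling 19 rose and 10 fell, with a median of 0.60, against 1.03 for all genes, of which 56.7% rose. Nr4a3 (ENSMUSG00000028341, chr4:48045153-48086447, plus strand), a nuclear receptor that follows receptor signal strength, had 79.8 and 97.2 CPM in co-culture and 17.5 and 17.4 CPM at rest (2.34 ± 0.16, adjusted p = 4.5e-08). Nr4a1 (Nur77), its relative, had 33.6 and 36.4 CPM in co-culture and 12.4 and 11.5 CPM at rest (1.55 ± 0.17, adjusted p = 5.2e-06). Irf8, a factor induced in activated CD8 T cells, had 336 and 341 CPM in co-culture and 25.8 and 25.8 CPM at rest (3.72 ± 0.14, adjusted p = 1.1e-09). All 3 rose, with both co-culture libraries above both resting libraries, as in 44.6% of all genes.

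Other early genes went down. Cd69, a retention receptor, had 20.5 and 18.5 CPM in co-culture and 419 and 454 CPM at rest (-4.49 ± 0.25, adjusted p = 2.4e-08). The AP-1 gene Fos fell by 2.35 ± 0.18, the phosphatase Dusp1 by 2.52 ± 0.14 and Egr1 by 1.76 ± 0.20. Egr2, a partner of Egr1, was not called (adjusted p = 0.10). Myc, a driver of growth, had 192 and 215 CPM in co-culture and 187 and 182 CPM at rest and was not called (0.14 ± 0.16, adjusted p = 0.47), but with T cell identity scaling it rose by 1.12 (adjusted p = 0.00023). The highest risers of the list were Spry2, Fosl1 and Spry1, feedback and AP-1 genes of growth factor signalling. Fosl1 had 239 and 259 CPM in co-culture and 0.728 and 0.275 CPM at rest, and 2.80 and 4.60 CPM with peptide.

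**Figure D3:**
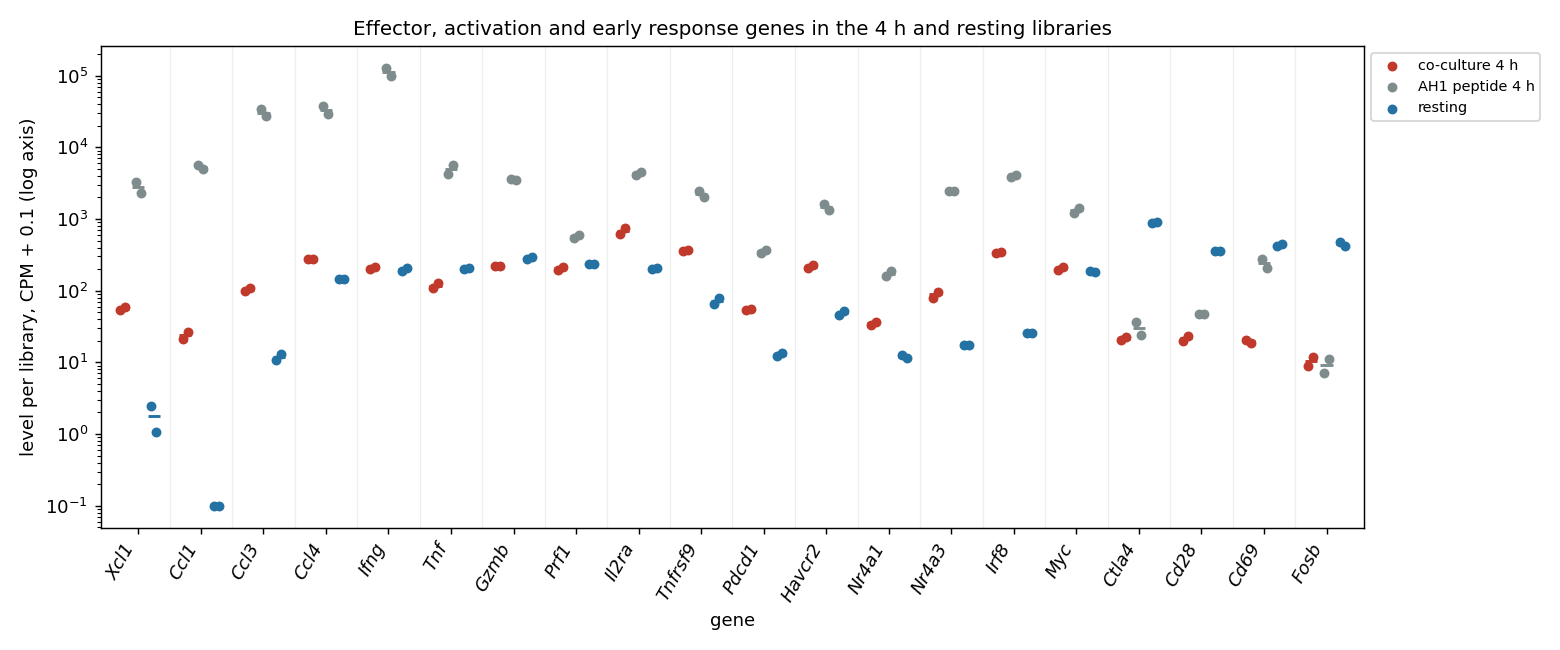
Levels in each library (points, CPM + 0.1 on a log axis) and their mean (bars) of 20 effector, activation and early response genes in co-culture 4 h, AH1 peptide 4 h and resting libraries. Xcl1, Ccl3, Il2ra, Tnfrsf9 and Nr4a3 were higher in co-culture than at rest and higher still with peptide, Ifng was 198 and 211 CPM in co-culture and 189 and 209 CPM at rest, and Ctla4, Cd28, Cd69 and Fosb were lower in co-culture than at rest.

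Genes of the resting and circulating state mostly fell. Of 30 egress and quiescence genes 25 fell and 2 rose, with a median of -2.09, and with T cell identity scaling 19 fell and 4 rose. Il7r, the IL-7 receptor chain of long-lived T cells, had 100 and 98.0 CPM in co-culture and 814 and 830 CPM at rest (-3.05 ± 0.14, adjusted p = 3.2e-09). Bach2, a repressor that holds T cells in a resting state, had 0.849 and 1.30 CPM in co-culture and 24.5 and 19.8 CPM at rest (-4.32 ± 0.36, adjusted p = 4.0e-07). Lef1, a factor of naive and memory cells, fell by 3.21 ± 0.23, and Tsc22d3, a glucocorticoid target, by 3.19 ± 0.15. Klf2, which drives genes of T cell exit from lymph nodes, fell to 3.70 and 5.30 CPM in co-culture, against 20.9 and 20.0 CPM at rest (-2.17 ± 0.27, adjusted p = 1.7e-05). The pair that rose was Tcf7, at 4.06 and 4.90 CPM in co-culture and 0 and 0.206 CPM at rest, and Klf3, with 4 counts in all at rest.

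NK-type lectin receptors, which memory-like CTLs carry, fell in 9 of 10 cases with none higher and a median of -1.66. For each list here, the share over all genes was 34.2% higher and 26.7% lower. With T cell identity scaling it was 56.7% higher and 8.51% lower. Klrd1 (CD94) had 118 and 112 CPM in co-culture and 775 and 781 CPM at rest (-2.76 ± 0.14, adjusted p = 7.2e-09), and Klrk1 (NKG2D) fell by 1.65 ± 0.14. Among 15 chemokine receptors 7 fell and 4 rose, and with T cell identity scaling 5 fell and 5 rose. Ccr2 fell to 15.4 and 13.6 CPM in co-culture, against 164 and 174 CPM at rest (-3.54 ± 0.18), and Cxcr3, the receptor of Cxcl9 and Cxcl10, fell by 2.19 ± 0.18. Ccr8 rose to 12.9 and 14.4 CPM in co-culture, against 0.616 and 0.755 CPM at rest (4.31 ± 0.43, adjusted p = 1.4e-06), and Ackr3, a scavenging receptor also found on tumor cells, by 7.95 ± 0.51. Transcription factors of CTL fate fell in 10 of 19 cases and rose in 3, and with T cell identity scaling 6 fell and 6 rose. Hopx (-3.51 ± 0.14), Rora (-2.85 ± 0.14) and Id2 (-2.33 ± 0.13) were among those that fell. Id3 rose to 198 and 189 CPM in co-culture, against 0.448 and 0 CPM at rest, and Eomes, a factor of memory CTLs, had 3.76 and 4.35 CPM in co-culture and no counts at rest.

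Interferon-gamma target genes rose together. Of 31 tested 24 rose, 3 fell, and the median was 1.78, while 34.2% of all genes rose. Cxcl10 (ENSMUSG00000034855, chr5:92346638-92348889, minus strand), a chemokine for Cxcr3-bearing T cells, had 249 and 295 CPM in co-culture and 0.392 and 0.481 CPM at rest (9.27 ± 0.36, adjusted p = 1.0e-10). Cxcl9 had 175 and 170 CPM in co-culture and 0 and 0.343 CPM at rest (10.06 ± 0.99, adjusted p = 2.9e-09). Irf1, a transcription factor that interferon-gamma induces, had 675 and 657 CPM in co-culture and 273 and 275 CPM at rest (1.28 ± 0.12, adjusted p = 9.9e-07). Socs1, the feedback inhibitor of this signal, rose by 1.78 ± 0.16. Both co-culture libraries lay above both resting libraries in these genes, as in 44.6% of all genes.

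Other members take part in defence inside the cell. Gbp2, a guanylate-binding protein, had 1008 and 889 CPM in co-culture and 86.6 and 94.0 CPM at rest (3.39 ± 0.19, adjusted p = 1.7e-08). Gbp5, which promotes inflammasome assembly, had 1338 and 1209 CPM in co-culture and 90.5 and 91.9 CPM at rest (3.80 ± 0.17). The immunity-related GTPases Irgm1, Irgm2 and Igtp rose by 3.43 ± 0.15, 3.87 ± 0.14 and 2.84 ± 0.17. Nos2, inducible nitric oxide synthase, had 154 and 188 CPM in co-culture and 4.37 and 4.33 CPM at rest (5.29 ± 0.22, adjusted p = 1.4e-09). The genes that fell were Gbp8, Nlrc5 and Ido1, and the call of Ido1 was lost whichever of the 4 libraries was left out. Guanylate-binding and immunity-related GTPase genes have close copies, so reads may be split among them.

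The promoters of 3 of these genes are shown as examples with a match to a sequence to which interferon-activated factors are known to bind. The promoter of Cxcl9 and a second promoter of Irf1 held neither sequence. Capitals mark, in Cxcl10 and Gbp2, a match to the core of the interferon-stimulated response element, which is GAAA, any 2 bases and GAAA. In Irf1 they mark a match to the core of the gamma-activated site, which is TTC, any 3 bases and GAA. Both motifs were searched on both strands from 250 bases before to 50 bases after the start of the gene, in RefSeq promoters of GRCm38.p6 (the build mm10), and matches of the pair could overlap. The windows are chr5:92348840-92349139 (minus strand) for Cxcl10, chr3:142620413-142620712 (plus strand) for Gbp2 and chr11:53769764-53770063 (plus strand) for Irf1, each written 5′ to 3′ along the gene.
Cxcl10: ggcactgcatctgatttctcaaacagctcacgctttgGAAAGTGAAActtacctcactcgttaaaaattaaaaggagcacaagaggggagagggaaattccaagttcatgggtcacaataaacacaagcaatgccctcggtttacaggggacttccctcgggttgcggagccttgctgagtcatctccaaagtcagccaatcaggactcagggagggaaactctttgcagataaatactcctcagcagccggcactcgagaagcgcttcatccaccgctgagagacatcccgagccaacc
Gbp2: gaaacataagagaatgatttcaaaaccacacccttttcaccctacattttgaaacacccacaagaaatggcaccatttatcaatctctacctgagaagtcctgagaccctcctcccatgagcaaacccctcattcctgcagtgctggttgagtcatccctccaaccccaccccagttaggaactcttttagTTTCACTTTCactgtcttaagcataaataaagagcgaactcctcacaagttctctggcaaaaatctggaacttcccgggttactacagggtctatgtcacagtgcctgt
Irf1: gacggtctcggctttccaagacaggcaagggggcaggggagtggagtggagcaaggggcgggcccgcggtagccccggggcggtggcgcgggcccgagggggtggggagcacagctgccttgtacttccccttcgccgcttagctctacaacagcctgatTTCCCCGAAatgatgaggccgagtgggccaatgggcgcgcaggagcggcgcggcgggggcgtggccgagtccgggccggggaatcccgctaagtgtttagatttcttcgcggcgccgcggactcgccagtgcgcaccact

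Of the 31 interferon-gamma genes 18 had a promoter in the table, and 11 of these 18 (61.1%) held the response element core, against 3.99% of 27025 genes. The gamma-activated core was in 8 of the 18 (44.4%), against 9.55% of all. Over all genes that rose in co-culture the shares were 3.90% and 8.18%. A match describes letters and not binding, and the list was drawn from known interferon-gamma targets.

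Antiviral genes known from type I interferon rose in 13 of 30 cases and fell in 6, with a median of 0.56, where 34.2% of all genes rose and 26.7% fell. With T cell identity scaling 23 rose and 3 fell, where 56.7% of all genes rose and 8.51% fell. Oasl2 had 54.9 and 65.9 CPM in co-culture and 0 and 0.343 CPM at rest, Rsad2 (viperin) rose by 3.84 ± 0.33 and Isg15, a ubiquitin-like modifier, by 1.82 ± 0.18. Mx1 and Mx2, antiviral GTPases, fell by 2.74 ± 0.14 and 2.63 ± 0.25.

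MHC class I genes, also targets of interferon-gamma, went the other way in the main. H2-D1, a class I heavy chain, had 1694 and 1750 CPM in co-culture and 8853 and 9230 CPM at rest (-2.39 ± 0.13, adjusted p = 7.4e-09). H2-K1 had 153 and 144 CPM in co-culture and 642 and 693 CPM at rest (-2.17 ± 0.12, adjusted p = 1.2e-08), and B2m, the light chain, fell by 1.76 ± 0.18 (adjusted p = 3.0e-06). Of 20 class I processing genes 11 fell and 4 rose, with a median of -0.86. With T cell identity scaling 9 rose and 6 fell, where 56.7% of all genes rose and 8.51% fell. Tap1, a peptide transporter, was not called (adjusted p = 0.062). Class I heavy chains are near-copies of each other, so their levels are uncertain one by one.

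**Figure D4:**
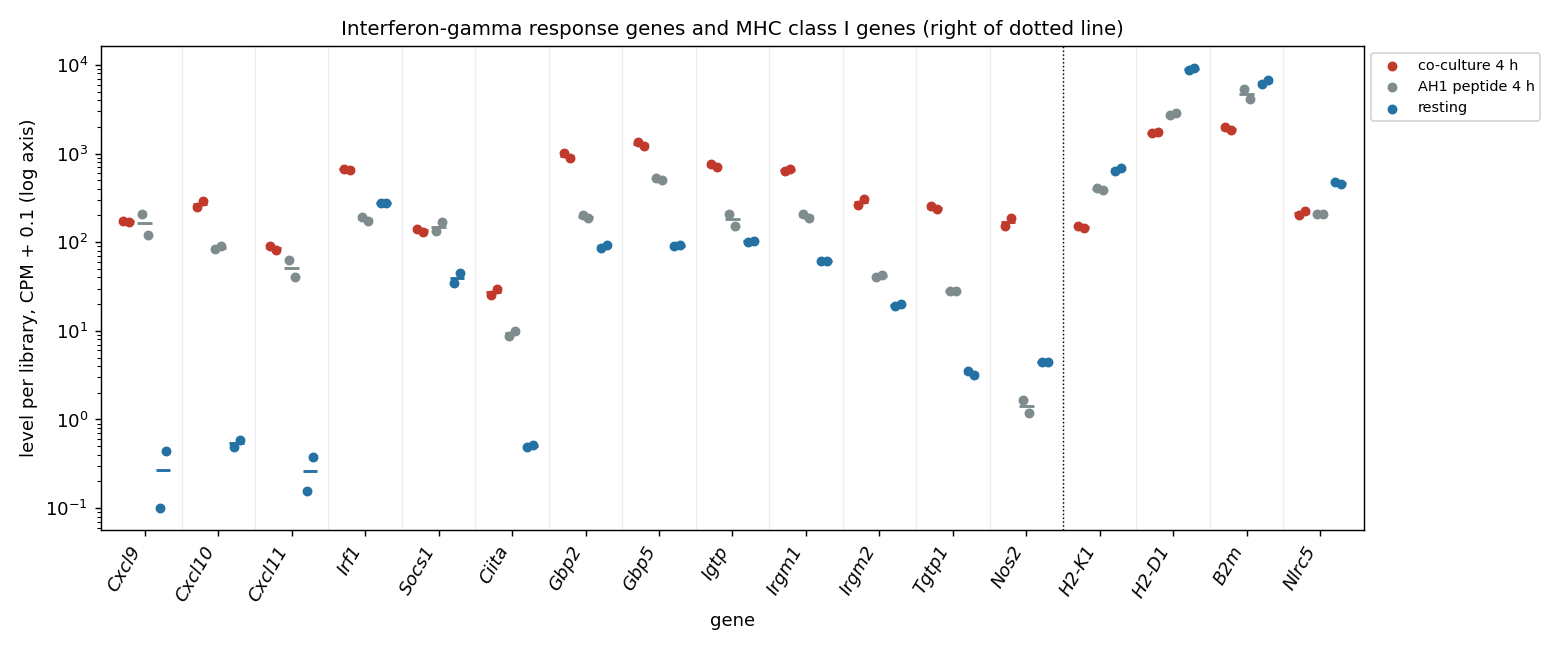
Levels in each library (points, CPM + 0.1 on a log axis) and their mean (bars) of 13 interferon-gamma response genes and, right of the dotted line, 3 class I genes and Nlrc5, a class I regulator, in co-culture 4 h, AH1 peptide 4 h and resting libraries. The 13 genes were higher in co-culture than at rest, whereas H2-K1, H2-D1, B2m and Nlrc5 were lower.

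Genes of cell division rose throughout. All 24 mitosis genes tested rose, with a median of 4.07 and a smallest change of 0.83. Cdk1, the kinase that starts mitosis, had 118 and 99.7 CPM in co-culture and 2.35 and 3.78 CPM at rest (5.17 ± 0.24, adjusted p = 2.1e-09). Top2a, a topoisomerase of dividing cells, had 379 and 370 CPM in co-culture and 34.8 and 32.8 CPM at rest (3.47 ± 0.15, adjusted p = 1.8e-09). Mki67, the Ki-67 gene, rose by only 0.92 ± 0.14 (adjusted p = 6.3e-05). With peptide at 4 h these 24 genes had a median of -0.60 relative to rest, with 2 higher and 9 lower, where 59.5% of all genes were called, 28.8% higher and 30.7% lower. Replication genes rose in 21 of 26 cases and fell in 1, with a median of 1.63, and Mcm5, a helicase subunit, had 184 and 185 CPM in co-culture and 24.9 and 22.7 CPM at rest. Their change stood beside that of the epithelial genes, and the part of 4T1 RNA in it was not tested.

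Ribosome biogenesis genes rose in 34 of 35 cases with none lower and a median of 1.59. Nop2, an rRNA methyltransferase, had 214 and 219 CPM in co-culture and 30.0 and 24.5 CPM at rest (2.98 ± 0.17, adjusted p = 1.8e-08), and Ncl, nucleolin, had 1837 and 1878 CPM in co-culture and 739 and 840 CPM at rest (1.23 ± 0.13). Chaperone genes rose in 12 of 16 cases and fell in 2. Hspa8, the constitutive Hsc70, had 3163 and 3191 CPM in co-culture and 806 and 801 CPM at rest (1.98 ± 0.12), and Hspd1, the mitochondrial chaperonin, rose by 2.48 ± 0.12.

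**Figure D5:**
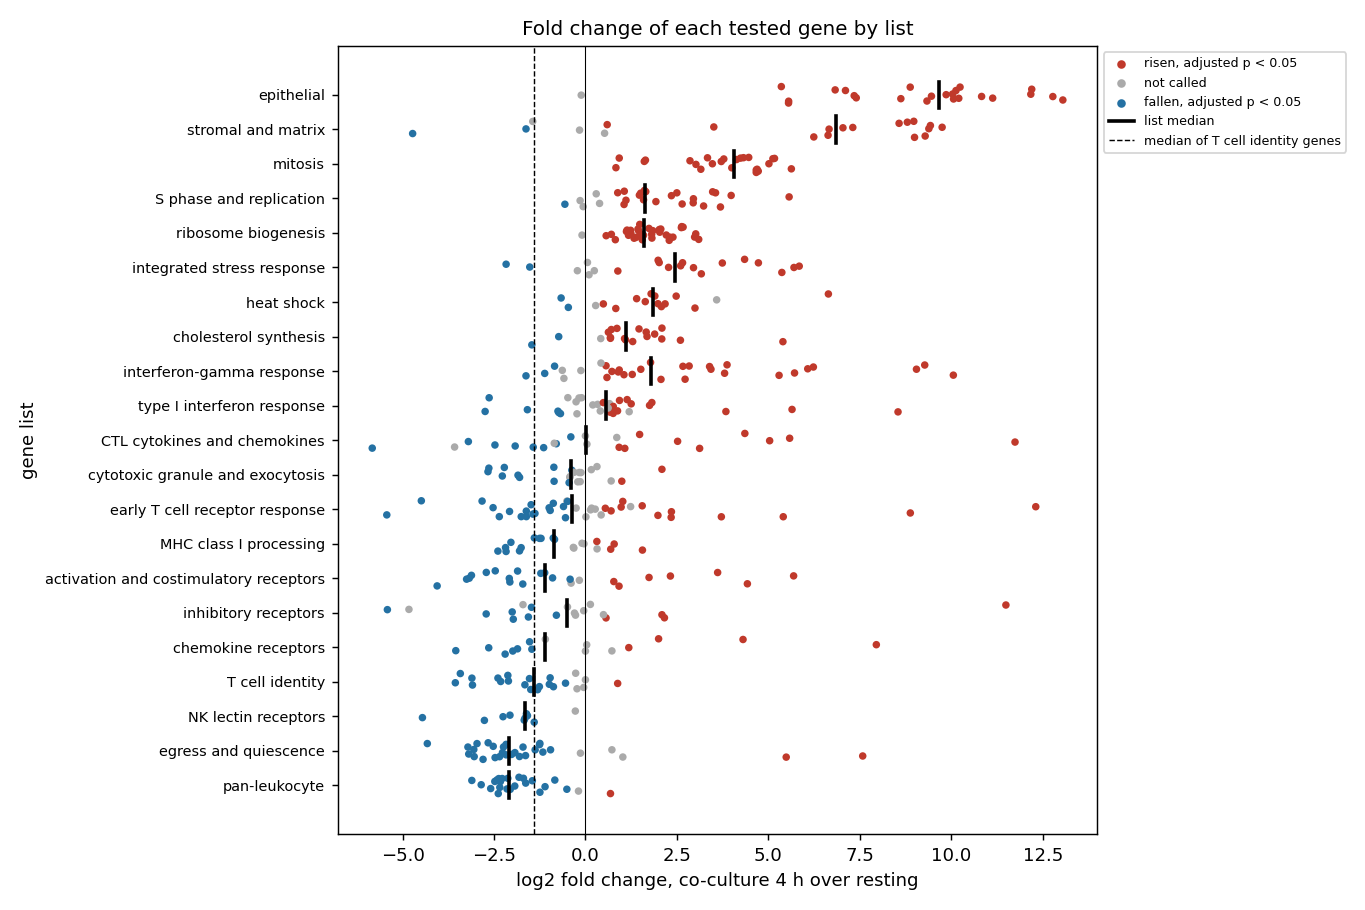
Log2 fold change of co-culture 4 h over resting for each tested gene (points) in 21 lists, with list medians as black bars and the T cell identity median of -1.40 as a dashed line. Epithelial, matrix and mitosis genes lie to the right, and NK lectin, quiescence and pan-leukocyte genes have medians left of the dashed line.

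Because the study is titled for Slc7a5 and its uptake of tryptophan, amino acid genes were followed. Slc7a5 (ENSMUSG00000040010, chr8:121881150-121907694, minus strand), the light chain of a large neutral amino acid transporter, had 90.8 and 111 CPM in co-culture and 16.0 and 13.3 CPM at rest (2.78 ± 0.26, adjusted p = 1.4e-06). Slc3a2, its heavy chain, had 162 and 189 CPM in co-culture and 117 and 102 CPM at rest (0.68 ± 0.17, adjusted p = 0.0035). With peptide at 4 h, Slc7a5 was at 244 and 325 CPM and Slc3a2 at 415 and 501 CPM. Co-culture over peptide was -1.50 for Slc7a5 (adjusted p = 0.00018) and -1.38 for Slc3a2 (adjusted p = 1.2e-05), on the log2 scale with TMM factors. Of 20 amino acid transporters 12 rose and 4 fell, with a median of 0.85. Slc7a1, which carries arginine, rose by 1.78 ± 0.19, and Slc1a5, which carries glutamine, by 1.05 ± 0.14. Wars, the tryptophanyl-tRNA synthetase, had 313 and 374 CPM in co-culture and 33.5 and 37.5 CPM at rest (3.27 ± 0.18, adjusted p = 1.4e-08), and it is also an interferon-gamma target. Ahr, the aryl hydrocarbon receptor, had 14.3 and 17.5 CPM in co-culture and 0.448 and 0.0687 CPM at rest (5.82 ± 0.62). Il4i1, an oxidase of aromatic amino acids, fell by 2.70 ± 0.24. Tryptophan and Ahr genes in all rose in 8 and fell in 6 of 18 cases, where 34.2% of all genes rose and 26.7% fell.

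Stress response genes under Atf4 rose in 14 of 20 cases and fell in 2, with a median of 2.44. Psat1, of serine synthesis, had 173 and 174 CPM in co-culture and 13.0 and 12.9 CPM at rest (3.74 ± 0.14, adjusted p = 8.4e-10), and Asns, asparagine synthetase, rose by 2.66 ± 0.14. Atf4 itself was not called (adjusted p = 0.12), and Ppp1r15a, the phosphatase subunit that ends the response, fell by 2.17 ± 0.20. Glycolysis genes rose in 11 of 20 cases with 1 lower. Ldha, lactate dehydrogenase, rose by 1.33 ± 0.12, while the glucose carrier Slc2a3 fell to 11.5 and 13.3 CPM in co-culture, against 175 and 184 CPM at rest (-3.85 ± 0.18, adjusted p = 4.2e-09). Its relative Slc2a1 was not called (adjusted p = 0.11). Cholesterol genes rose in 16 of 19 cases and fell in 2. Hypoxia genes rose in 4 and fell in 5 of 14 cases. With T cell identity scaling 8 rose and none fell, with a median of 0.79, against 1.03 for all genes, of which 56.7% rose.

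Death and survival genes were divided. Fas, the death receptor, had 27.1 and 26.0 CPM in co-culture and 0.952 and 1.79 CPM at rest (4.30 ± 0.37, adjusted p = 3.4e-07), and Bcl2l1, which encodes the survival protein Bcl-xL, rose by 2.54 ± 0.19. Pmaip1 (Noxa), a killer protein, fell by 2.76 ± 0.16. In all 9 of 20 rose and 7 fell, where 34.2% of all genes rose and 26.7% fell.

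Cytokines known from tumor and stromal cells rose in 15 of 22 cases and fell in 3, with a median of 5.43. Csf3, the granulocyte factor G-CSF, had 642 and 536 CPM in co-culture and 0.168 and 1.79 CPM at rest (adjusted p = 4.7e-09). Lif had 408 and 408 CPM in co-culture and 0.392 and 0.549 CPM at rest (9.76 ± 0.42), Cx3cl1 had 542 and 653 CPM in co-culture and 1.12 and 1.92 CPM at rest (8.64 ± 0.32), and Cxcl1, which attracts neutrophils, had 559 and 430 CPM in co-culture and 2.41 and 3.98 CPM at rest. Csf1, the macrophage factor, was lower at 449 and 544 CPM in co-culture than at rest with 1125 and 1032 CPM (-1.12 ± 0.19, adjusted p = 0.00024).

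Compared directly with the libraries taken 4 h after AH1 peptide, 61.4% of genes differed, 35.1% higher and 26.3% lower in co-culture. The split depends on the scaling, with 10012 genes higher and 763 lower under T cell identity scaling, and 7496 higher and 1919 lower with library totals. The peptide libraries hold B cell RNA, with all 13 B cell genes above rest and their sum at 483 and 570 CPM, and the part of it in the differences was not tested. Effector genes were lower in co-culture: Ifng was at 198 and 211 CPM in co-culture and at 128634 and 98762 CPM with peptide (-9.12 on the log2 scale, adjusted p = 8.7e-11). Of the CTL cytokine genes 18 of 22 were lower and 2 higher in co-culture than with peptide, and 17 were lower and 3 higher with T cell identity scaling. Of ribosome biogenesis genes 34 of 35 were lower, but with T cell identity scaling 6 were lower and 5 higher. Interferon-gamma target genes were more often higher than lower, with 19 of 31 higher and 7 lower in co-culture, and 25 higher and 5 lower with T cell identity scaling. Relative to rest, peptide also raised 21 of the 31 and lowered 8. Their median was 1.70 with peptide and 1.78 in co-culture. Over all genes 28.8% rose and 30.7% fell with peptide. Of the 24 targets that rose in co-culture 17 also rose with peptide, Cxcl10 by 7.62 among them. Irf1 was at 675 and 657 CPM in co-culture and at 192 and 174 CPM with peptide (1.86, adjusted p = 3.9e-08), and Nos2 was at 154 and 188 CPM in co-culture and at 1.55 and 1.10 CPM with peptide (7.01, adjusted p = 5.6e-10). T cell identity genes were lower in 21 of 22 cases in the same contrast, and epithelial genes were higher in 23 of 24.

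At 24 h of co-culture 16.5% of genes differed from 4 h, 8.5% higher and 8.02% lower, and this count of 2433 genes was 848 to 2785 when single libraries were left out, lowest without co-culture 4 h replicate 2. Of the 29 panel genes followed through the text, 21 differed, all of them lower at 24 h, whereas with T cell identity scaling 11 were lower and 11 higher. Cd3e and Lck fell by a further 1.21 and 1.43 on the log2 scale, Ifng by 3.64 and Il2ra by 3.91, while Krt8, Epcam, Cxcl10 and Slc7a5 were not called. With T cell identity scaling Ifng was at -2.02 and Il2ra at -2.34, and Cd3e and Lck were not called.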

How the data were processed

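RNA-seq of poly(A) RNA from 10 libraries of 2/20 CTLs was used as deposited: whole-number counts per gene made by the authors, not normalized. The submitters' processing notes name DESeq2 1.36 and mm10. Neither aligner nor counter is stated there. Genes were kept by edgeR's filterByExpr, 14729 of 35275, of which 12534 had no counts. All 10 libraries entered 1 quasi-likelihood fit (edgeR 4.0.16, limma 3.58.1, R 4.3.3) with TMM scaling and no covariate, and a gene was called at an adjusted p under 0.05 (Benjamini-Hochberg). Against a group with no counts, folds were computed from 3 counts in that group, a floor that covers counting error only. The script was tested on simulated data, where 65% of changes of 1 on the log2 scale and 91% of changes of 2 were called. Of the calls 3.7% were false. The simulated libraries held no 4T1 RNA, so the effect of such RNA on the scaling was not tested. Named genes are the 10 highest and 10 lowest fold changes with both libraries of a group beyond both of the other and at least 5 CPM, a panel of 29 genes, and list members by p or by role. Members and lists were chosen with earlier results of these data known. Alternatives were scaling by library totals, RLE factors or T cell identity genes, no filter, only the groups compared, DESeq2 1.42.0, a replicate block and leaving out each library. Promoters are RefSeq's (GRCm38.p6). Some items are not reported here.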

Additional observations from a re-analysis of the deposited data

Results flagged for a closer look

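Effects at 24 h and 4 h of co-culture were compared directly, in the same fit, for the 29 panel genes, and 21 differed at an adjusted p under 0.05 (edgeR's quasi-likelihood test). Values are log2 of 24 h over 4 h. Among T cell genes Cd3e was at -1.21, Lck at -1.43 and Ptprc at -0.69. Among cytokines Ifng was at -3.64, Tnf at -2.48, Xcl1 at -5.41, Ccl3 at -4.91 and Ccl4 at -3.66. Cytotoxic genes were lower too, with Gzmb at -1.51, Prf1 at -2.70 and Fasl at -1.22. Il2ra was at -3.91, Tnfrsf9 at -4.26 and Pdcd1 at -2.06. Early response genes were at -2.03 for Nr4a1, -4.39 for Nr4a3, -1.43 for Egr1, -3.02 for Egr2, -2.24 for Irf4 and -0.69 for Myc. Cd274 was at -0.95. With T cell identity scaling 22 of the 29 differed, 11 lower and 11 higher at 24 h. Ptprc (0.91), Myc (0.86) and Cd274 (0.65) were then higher, and Gzmb, Fasl, Pdcd1, Nr4a1 and Egr1 were not called. The change of Cd3e and Lck stands beside all of these, and its part in them was not tested.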

How the results depend on the processing

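With 2 libraries a group and much 4T1 RNA in co-culture, scaling was the choice that moved the results most. T cell identity scaling moved the median of all genes to 1.03, from 0.05, with 8344 genes higher and 1254 lower in co-culture than at rest (86.9% of calls higher, 56.1% without it). Against peptide it gave 10012 higher and 763 lower, and 24 h against 4 h of co-culture gave 11647 (11535 higher, 112 lower). Library totals gave 1919 lower than with peptide. Under T cell identity scaling the sign turned for Egr2 (0.46, not called under either), Tnf (0.18), Gzmb (0.60), Prf1 (0.77), Irf4 (0.10), Zap70 (0.75), Nkg7 (0.81), Ido1 (0.13) and Tap1 (0.65). Calls were lost for Cd3e (-0.28), Lck (-0.33), Fasl (-0.17), Cd8b1 (-0.01), Nlrc5 (-0.14) and Csf1 (-0.14), and gained for Ifng, Myc, Atf4 and Slc2a1. Scaling by the T cell identity median ratio, chosen after seeing the data, gave 10372 higher and 769 lower (93.1% of calls higher). It turned Cd3e (0.25), Lck (0.20), Tnf (0.71), Gzmb (1.14), Prf1 (1.30), Fasl (0.37), Egr2 (1.00), Irf4 (0.63), Cd8b1 (0.53), Zap70 (1.28), Nkg7 (1.34), Nlrc5 (0.40), Ido1 (0.67), Tap1 (1.18) and Csf1 (0.39). Leaving out single libraries, 24 h against 4 h gave 848 to 2785 genes, 385 to 1379 higher and 463 to 1406 lower: 1189 without co-culture 4 h replicate 1, 848 without its replicate 2 and 1322 without co-culture 24 h replicate 2. Ido1 was not called without any single library of the 2 groups, nor Irf4 without co-culture 4 h replicate 1. Replicate numbers were not taken to pair the libraries: deviations of co-culture 4 h replicate 1 correlated at -0.12 with resting, 0.18 with peptide 4 h and -0.37 with co-culture 24 h replicate 1. The replicate block gave 8590 calls and crossed numbers, added after seeing the data, 8895, against 8965, with no call changed among 152 named genes. For 24 h against 4 h they gave 1974 and 2427, against 2433. DESeq2 gave 8817 calls, of which 8664 were shared in direction. No named gene changed sign with library totals, RLE factors, no filter, only the groups compared or DESeq2.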
